A study of Mus musculus with 6 samples.

Results

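The genes described here encode the parts of the mitochondrial respiratory chain and of ATP synthase that are made from nuclear DNA, measured in mouse tongue. They were the protein-coding genes outside the mitochondrial chromosome whose symbols begin with Ndufa, Ndufb, Ndufc, Ndufs, Ndufv, Uqcr, Cox4i, Cox5, Cox6, Cox7, Cox8 or Atp5, together with Sdha, Sdhb, Sdhc, Sdhd, Cyc1 and Cycs. This rule reads names and no measured value, but it was set with earlier results of these data known. It took 94 of the 35275 genes in the deposited table. By role they were 7 core and 29 accessory subunits of complex I, 4 subunits of complex II, 9 of complex III, cytochrome c, 19 of complex IV, and 5 subunits of the F1 head and 10 of the stalk and membrane part (FO) of ATP synthase. The remaining 10, Ndufaf1 to Ndufaf7, Atp5s, Atp5sl and Cox7a2l, are assembly or accessory factors that share the prefixes and were kept apart from the subunits.

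Bulk RNA was sequenced from tongues of Aim2 KO and wild type mice, with 3 libraries labelled with each genotype. Aim2 encodes a sensor of cytosolic double-stranded DNA that builds an inflammasome. All mice, wild type included, had received 4NQO (4-nitroquinoline 1-oxide) in its drinking water at 100 µg/ml for 20 weeks, a carcinogen used to provoke oral squamous tumours in mice. No untreated tongue was compared, and the labels used here give neither strain, age, sex nor the construction of the Aim2 allele. A whole tongue holds muscle, stratified epithelium, glands, vessels and nerves, so that in bulk RNA fewer cells of a type and less RNA per cell cannot be told apart.

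Complexes I and II pass electrons from NADH and succinate to ubiquinone, complex III passes them on to cytochrome c, and complex IV hands them to oxygen. Complexes I, III and IV pump protons across the inner mitochondrial membrane, and ATP synthase (complex V) lets the protons return while it makes ATP. Skeletal muscle, the bulk of the tongue, is rich in mitochondria and makes its own isoforms of several complex IV subunits.

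The libraries held 21959204 to 25369400 reads. Aim2 itself was at 0.0469, 0.0564 and 0.160 FPKM (fragments counted per kilobase of the gene and scaled to library depth) in the Aim2 KO libraries (replicates 1, 2 and 3, in this order throughout), and at 0.201, 0.363 and 0.417 in wild type replicates 1, 2 and 3. That is 3, 4 and 10 reads against 14, 25 and 30, lower in every library labelled Aim2 KO but under the expression minimum of 1 FPKM set for the test. Skeletal muscle RNA was present, with 14 of 15 markers above the expression minimum (Tnnc2 was below it) and a summed level of 11121 to 21629 FPKM in the Aim2 KO libraries and of 18341 to 22590 in wild type. All 12 markers of oral epithelium were also expressed, at 36107 to 50151 FPKM against 37268 to 46411. Aim2 KO replicate 1 stood apart on both lists, with the lowest sum of muscle markers and the highest sum of epithelial ones. It was also the lowest library for the summed markers of fibroblasts (115 FPKM, the other 5 libraries 151 to 273) of endothelium (18.4 FPKM, the others 27.4 to 49.7), of Schwann cells (23.7 FPKM, the others 52.4 to 96.8) and of red cells (43.7 FPKM, the others 115 to 305). It was the highest for salivary gland markers (4879 FPKM, the others 1114 to 4597). Of 10 leukocyte markers 5 reached the minimum, and their sum did not overlap between genotypes (14.6 to 23.4 FPKM in Aim2 KO, 9.84 to 13.2 in wild type, for all 10). The part of these cell types in the results on respiratory chain genes was not tested. A fit with the muscle markers as a covariate is given below. It cannot separate muscle from the other traits of Aim2 KO replicate 1, since the muscle level mostly sets that library apart. Because Aim2 KO replicate 1 stands apart, the counts of direction and overlap between genotypes and the isoform ratios are given with and without it.

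Of the 94 genes, 90 reached a mean of 1 FPKM over the 6 libraries and were tested. Cox8c was listed at 0 in every library, Cox7b2 was above 0 in wild type replicate 2 alone, and Cox6b2 lay between 0 and 1.69 FPKM; these are isoforms best known from testis. The fourth, Ndufb2, an accessory subunit of complex I, lay between 0.325 and 0.640 FPKM. Its low level stands against 22.4 to 322 FPKM for the 35 other complex I subunits. The table gives Ndufb2 a length of 4371 bases, against a coding length of 315, on the plus strand of chromosome 6 (39592574 to 39603382, GRCm38). How the authors assigned reads to genes is not given in the sources used here, so the level of Ndufb2 is uncertain. The members together took 1.54%, 2.05% and 1.96% of the reads in Aim2 KO replicates 1, 2 and 3, and 2.07%, 2.22% and 1.71% in the wild type replicates.

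ATP synthase and complex IV held the most abundant members. The highest was Atp5b, the catalytic beta subunit of ATP synthase, at 1022, 1426 and 1357 FPKM in the Aim2 KO libraries and 1285, 1423 and 1187 in wild type. Its ranges overlapped, and Aim2 KO replicate 1 was the lowest of the 6. In complex IV the highest was Ndufa4, a subunit once assigned to complex I, at 892, 858 and 867 FPKM against 1089, 951 and 804. Here the Aim2 KO libraries lay close together, inside the wild type range. Mean levels of the 15 ATP synthase subunits ran from 65.1 to 1283 FPKM and those of the 16 tested complex IV genes from 1.66 to 910.

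Complex III was led by Uqcrc1, a core protein of the complex, at 318, 411 and 398 FPKM against 404, 423 and 367, and its 9 genes ran from 127 to 387 FPKM. In complex II the highest was Sdha, the flavoprotein that oxidises succinate, at 137, 229 and 209 FPKM against 200.05, 249 and 205. Sdha was low in Aim2 KO replicate 1 and overlapped between genotypes in the other libraries. Complex I was led by the accessory subunit Ndufb9, at 278, 339 and 319 FPKM against 352, 380 and 264. Cycs, the electron carrier between complexes III and IV, was at 51.6, 77.8 and 79.9 FPKM against 80.9, 78.9 and 64.5. The assembly and accessory factors were scarcer, from 5.13 to 116 FPKM with a median of 10.1, and the most abundant was Cox7a2l, which helps to join complexes III and IV. The plot of every gene by library and role shows the same order of libraries in most roles: Aim2 KO replicate 1 and wild type replicate 3 low, wild type replicate 2 high.

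**Figure D1:**
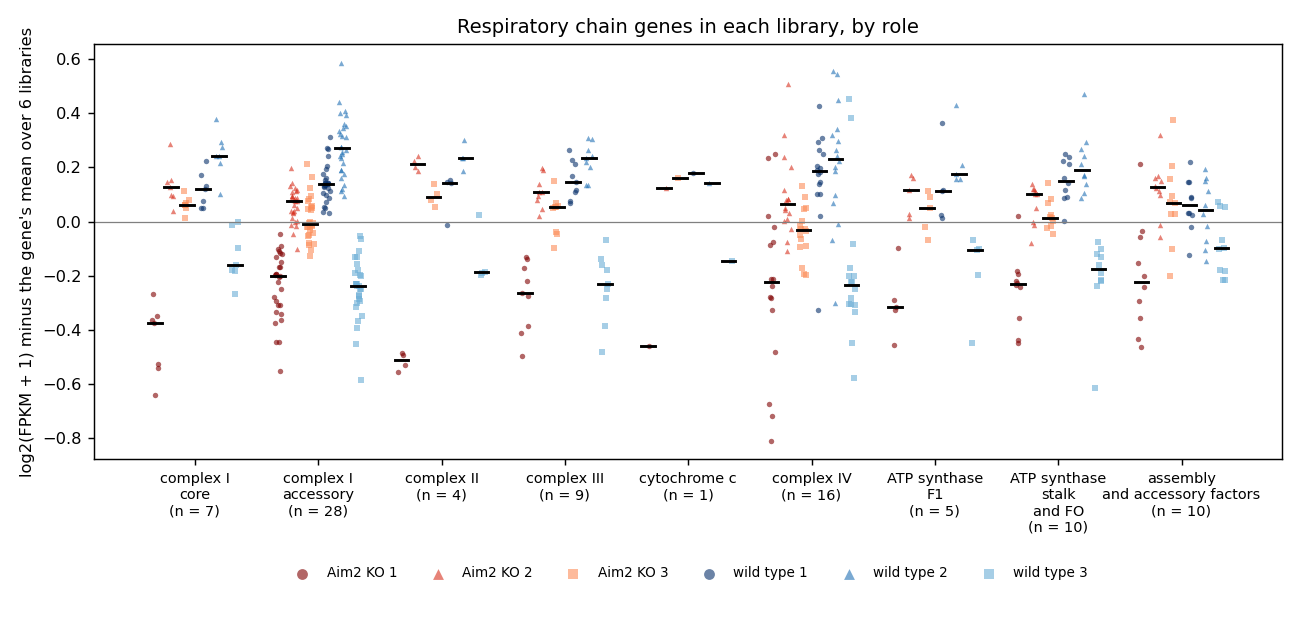
Level of each of the 90 tested genes in each library, as log2(FPKM + 1) minus that gene's mean over the 6 libraries (vertical axis), by role (horizontal axis). Each point is a gene, colours and shapes mark the 6 libraries, and the black bar is the median of the role in that library; the bars of Aim2 KO replicate 1 and wild type replicate 3 lie below 0 in every role.

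The comparison of genotypes asks whether loss of Aim2 went with another level of these genes in the carcinogen-treated tongue. No member passed. With limma on log2(FPKM + 1) and Benjamini-Hochberg adjustment over all 12144 tested genes, 0 of 90 members were called at 0.05, where 0.00823% of all tested genes were (1 gene). The adjusted p was 0.9998 for each member, and 0 members had an unadjusted p under 0.05. Over all tested genes that unadjusted share was 0.576% lower and 1.93% higher in Aim2 KO. The 3 Aim2 KO libraries did not lie wholly below or wholly above the 3 wild type libraries for any member, against 1.48% and 4.98% of all tested genes. Without Aim2 KO replicate 1, 1 member lay wholly below (Cox6a1, where 5.11% of all tested genes did) and 3 wholly above (Ndufaf7, Atp5s and Uqcrc2, where 17.7% did). The differences are measured with some width: the 95% intervals of 88 of the 90 differences lay within -1 and 1 on the log2 scale, and the outermost bounds were -1.15 and 0.67.

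Most of the differences had the same sign. Of the 90 members, 83 had a log2 difference (Aim2 KO minus wild type) below 0, with a median of -0.11, where 42.8% of all tested genes were below 0 and their median was 0.02. By complex, 34 of 35 genes of complex I were below 0 (median -0.12), 4 of 4 of complex II (median -0.12), 9 of 9 of complex III (median -0.09), 14 of 16 of complex IV (median -0.13) and 15 of 15 of ATP synthase (median -0.11). The factors stood nearer to 0, with 6 of 10 below it and a median of -0.02. Of 3 ATP synthase genes that the name rule missed, 1 was below 0 (median 0.07). The sign rested on few libraries. Without Aim2 KO replicate 1, 44 of 90 members were below 0 with a median of 0.002. Of all tested genes 33.3% were then below 0, and their median was 0.06. By complex the counts were then 19 of 35 for complex I, 0 of 4 for complex II, 3 of 9 for complex III, 13 of 16 for complex IV and 6 of 15 for ATP synthase. Without wild type replicate 2, the count was 55 of 90 and the median -0.03 (43.7% of all tested genes below 0). Without wild type replicate 3 the median was -0.24 and 5 members had an unadjusted p under 0.05 in the lower direction, where 0.791% of all tested genes did, but again 0 were called after adjustment. In the higher direction 2 members had such a p with array quality weights (1235 of 12144 tested genes). Without Aim2 KO replicate 1 it was 1 member (642 of 12144).

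**Figure D2:**
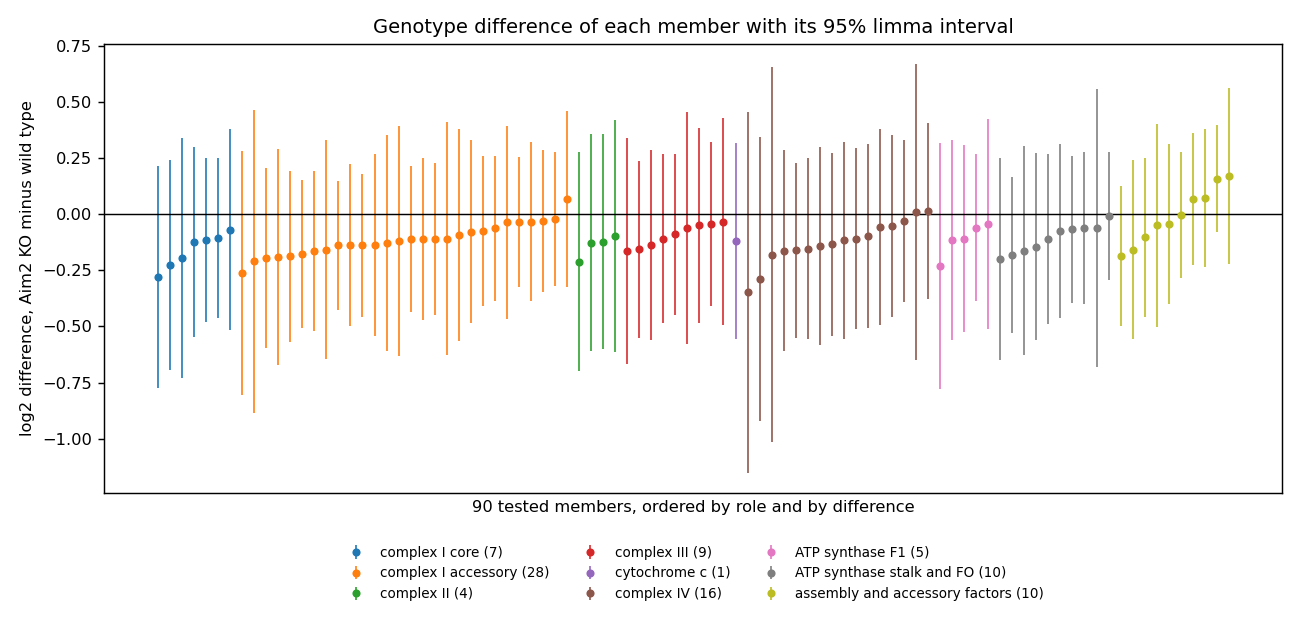
Difference in log2(FPKM + 1) of each tested gene between Aim2 KO and wild type, below 0 where Aim2 KO is lower (vertical axis), with its 95% limma interval (vertical line). Genes are ordered by role (colour) and by difference (horizontal axis); all 90 intervals cross 0.

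Among subunits, the smallest unadjusted p in the lower direction belonged to Ndufs7, an iron-sulfur core subunit of complex I. It was at 115, 171 and 174 FPKM in the Aim2 KO libraries and 194, 216 and 146 in wild type, a log2 difference of -0.28 (SE 0.21, limma unadjusted p = 0.228). The ranges overlapped through wild type replicate 3. Ndufb7 and Ndufa8, accessory subunits of complex I, had 20.9 ± 2.46 against 23.8 ± 3.48 FPKM and 124 ± 8.44 against 144 ± 27.9 (mean ± SD, n = 3 a genotype, here and below). Atp5l, a membrane subunit of ATP synthase, had 375 ± 25.7 against 428 ± 53.2 FPKM. Their log2 differences were -0.18, -0.19 and -0.18, each with an interval that spans 0.

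The assembly factors of complex I held the smallest p on either side. Ndufaf7, a mitochondrial methyltransferase, was at 8.17, 9.17 and 9.49 FPKM in Aim2 KO and 7.63, 8.28 and 7.79 in wild type. Its log2 difference was 0.16 (SE 0.10, limma unadjusted p = 0.161), and the ranges overlapped because wild type replicate 2 lay above Aim2 KO replicate 1. Ndufaf6 differed the other way, 8.47 ± 1.49 against 9.68 ± 0.35 FPKM (log2 difference -0.19). Ndufaf2 stood at 14.3 ± 2.19 against 13.5 ± 1.02, Cox7a2l at 118 ± 7.95 against 113 ± 12.4, and Atp5s at 5.53 ± 1.37 against 4.73 ± 0.43 FPKM. The only subunit among the 5 smallest p in the higher direction was Ndufb5, an accessory subunit of complex I, with 75.2 ± 11.6 against 71.9 ± 11.8 FPKM. None of these differences passed the test.

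Of the subunits of complex IV, 3 come in a form common to most tissues and a form of heart and skeletal muscle: Cox6a1 and Cox6a2, Cox7a2 and Cox7a1, Cox8a and Cox8b. The promoters of 5 of these genes, those in the RefSeq table, are shown so that the 2 kinds of form can be compared. Each run below is RefSeq sequence (GRCm38.p6) from 250 bases before to 30 bases after the transcription start, read on the strand of the gene. Capitals mark matches to 3 motifs searched on both strands: the NRF1 core GCGCATGC, the ETS core CCGGAAG bound by GABPA, and the E-box CAGCTG bound by myogenic factors. NRF1 and GABPA are textbook activators of respiratory chain genes. Cox6a1 lies at chr5:115348929-115349208 (minus strand), Cox7a2 at chr9:79759824-79760103 (minus), Cox8a at chr19:7217587-7217866 (minus), Cox7a1 at chr7:30183921-30184200 (plus) and Cox8b at chr7:140900417-140900696 (minus).
Cox6a1, common form: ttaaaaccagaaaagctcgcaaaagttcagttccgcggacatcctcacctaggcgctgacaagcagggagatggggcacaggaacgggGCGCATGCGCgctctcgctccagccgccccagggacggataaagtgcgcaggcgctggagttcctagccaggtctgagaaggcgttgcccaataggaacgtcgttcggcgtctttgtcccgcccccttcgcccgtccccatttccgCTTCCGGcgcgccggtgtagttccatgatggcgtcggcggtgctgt
Cox7a2, common form: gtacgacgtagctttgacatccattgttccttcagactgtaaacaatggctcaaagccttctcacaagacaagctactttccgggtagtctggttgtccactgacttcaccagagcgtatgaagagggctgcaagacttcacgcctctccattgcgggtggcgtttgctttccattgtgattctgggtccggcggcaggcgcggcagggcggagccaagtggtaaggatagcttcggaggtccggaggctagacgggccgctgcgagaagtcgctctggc
Cox8a, common form: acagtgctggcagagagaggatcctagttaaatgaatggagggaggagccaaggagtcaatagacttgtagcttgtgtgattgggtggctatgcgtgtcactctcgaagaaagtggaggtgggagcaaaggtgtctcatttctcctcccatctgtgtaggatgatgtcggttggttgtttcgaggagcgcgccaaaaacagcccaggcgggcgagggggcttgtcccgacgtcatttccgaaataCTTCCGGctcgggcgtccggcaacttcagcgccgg
Cox7a1, muscle form: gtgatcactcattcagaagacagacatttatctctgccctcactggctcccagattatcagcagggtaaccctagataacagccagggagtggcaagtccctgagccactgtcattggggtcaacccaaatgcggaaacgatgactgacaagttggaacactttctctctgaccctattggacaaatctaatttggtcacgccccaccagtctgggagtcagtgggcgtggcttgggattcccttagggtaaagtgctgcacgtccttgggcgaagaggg
Cox8b, muscle form: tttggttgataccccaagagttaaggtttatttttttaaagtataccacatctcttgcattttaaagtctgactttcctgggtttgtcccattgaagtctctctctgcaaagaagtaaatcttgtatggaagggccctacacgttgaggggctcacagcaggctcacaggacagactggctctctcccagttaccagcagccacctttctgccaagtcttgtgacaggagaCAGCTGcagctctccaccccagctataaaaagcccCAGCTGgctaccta
The capitals of Cox6a1 are 2 overlapping NRF1 matches, 1 on each strand, and 1 ETS match close to the start. Cox8a holds 1 ETS match, also close to the start. In Cox7a1, a muscle form, and in its common partner Cox7a2 none of the 3 motifs was found, and Cox8b holds 2 E-boxes and neither of the others.

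The RefSeq promoter table held 74 of the 94 members and 27025 genes in all, with a window that ends 50 bases after the start. Some genes had more than 1 window, and each gene counted once, with a match in any of its windows. The NRF1 core was found in 13 members (17.6%, against 3.05% of all genes in the table), among them Cycs, Uqcrc1 and Sdhb. The ETS core was found in 17 (23.0%, against 9.93%), among them Ndufs3, Ndufs8, Cox6b1 and Cox8a. Both were found in 5, namely Atp5k, Atp5l, Sdhb, Uqcr11 and Cox6a1, and neither in 49. The E-box was found in 6 (8.11%, against 18.3%), the site TCAAGGTCA of estrogen-related receptors in 2 (2.70%, against 0.466%) and the MEF2 core CTAAAAATA in 0 (against 0.588%). These are matches of letters and say nothing about binding.

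The muscle isoforms varied widely between libraries, with a median SD within a genotype of 0.55 on the log2 scale, against 0.23 over all tested members. Cox6a2 was at 339, 623 and 559 FPKM in the knockout libraries and at 616, 740 and 471 in wild type, while Cox6a1 was at 371, 293 and 280 against 347.5, 313 and 298. In Aim2 KO replicate 1 alone the common form exceeded the muscle form. Cox8b was at 147, 306 and 269 FPKM against 349, 379 and 189, and Cox8a at 366, 302 and 268 against 331, 329.5 and 264. Aim2 KO replicate 1 had the lowest Cox8b and the highest Cox8a of all 6 libraries. Cox7a1 was at 164, 338 and 297 FPKM against 332, 399 and 181, and Cox7a2 at 114, 151 and 136 against 165, 160 and 117. In this pair both forms were low in Aim2 KO replicate 1 and in wild type replicate 3.

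The ratio of the forms within a library does not depend on how libraries are scaled. For Cox6a2 to Cox6a1 it was 0.913, 2.13 and 1.99 in Aim2 KO and 1.77, 2.36 and 1.58 in wild type. The Cox8b to Cox8a ratio was 0.402, 1.01 and 1.00 against 1.06, 1.15 and 0.718, and the Cox7a1 to Cox7a2 ratio 1.44, 2.24 and 2.18 against 2.01, 2.49 and 1.55. In each pair Aim2 KO replicate 1 was the lowest library and wild type replicate 2 the highest. The differences between genotypes on the log2 scale were -0.26 for Cox6a2 to Cox6a1 (exact permutation test, two-sided, p = 0.8), -0.05 for Cox7a1 to Cox7a2 (exact p = 0.9) and -0.36 for Cox8b to Cox8a (exact p = 0.5). Adjusted over the 3 pairs each p was 0.9, and 3 libraries against 3 cannot give a p below 0.1. Without Aim2 KO replicate 1 the differences were 0.13, 0.16 and 0.08, all of the opposite sign.

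**Figure D3:**
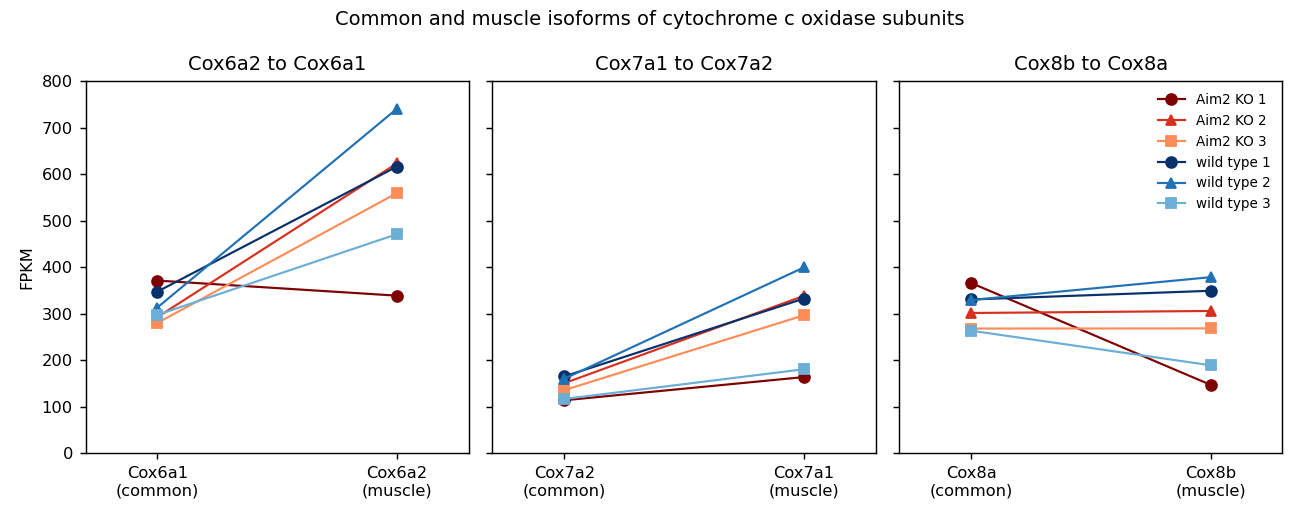
FPKM (vertical axis) of the common form and the muscle form of 3 cytochrome c oxidase subunits (horizontal axis), with 1 line per library. From Cox6a1 to Cox6a2 the line of Aim2 KO replicate 1 falls and those of the other 5 libraries rise. From Cox8a to Cox8b the lines of Aim2 KO replicate 1 (ratio 0.402) and wild type replicate 3 (ratio 0.718) fall. Cox8b in Aim2 KO replicate 1 is at 147 FPKM.

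The other paired isoforms had a dominant form. Cox4i1, the regulatory subunit found in most tissues, had 416 ± 33.5 FPKM in Aim2 KO and 467 ± 81.0 in wild type, whereas Cox4i2, its counterpart of lung and of low oxygen, had a mean of 1.66 FPKM over the 6 libraries from as few as 14 reads. Cox6b1 had 455 ± 22.1 against 493 ± 92.0 FPKM, and Cox7b had 189 ± 20.8 against 198 ± 37.2, both far above their testis forms. Ndufa4l2, the form of Ndufa4 induced by low oxygen, had 26.5 ± 2.21 against 29.5 ± 8.10 FPKM. It was the only tested member in which wild type replicate 3 was the highest library, at 38.2 FPKM.

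Both low libraries were low in nearly every member, but not in the same members by the same amount. For 75 of the 90 tested members Aim2 KO replicate 1 and wild type replicate 3 were the lowest pair of the 6 libraries. Aim2 KO replicate 1 was the lowest for 51 members and wild type replicate 3 for 35, and wild type replicate 2 was the highest for 59. Over all 12144 tested genes these 3 counts were 4161, 1574 and 1592. For the lowest pair no count over all tested genes was made. Against the mean of the other 2 libraries of its genotype, Aim2 KO replicate 1 had a median difference of -0.31 on the log2 scale over the members and of -0.10 over all tested genes. For wild type replicate 3 the medians were -0.38 and 0.02. The mean level of the members, on the log2(FPKM + 1) scale, was 6.51, 6.88 and 6.81 in the Aim2 KO libraries and 6.92, 7.01 and 6.59 in wild type. The spread within a genotype was accordingly larger for members (median SD 0.23) than for all tested genes (median 0.17).

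Among the complexes, Aim2 KO replicate 1 stood lowest in complex II, with a median difference of -0.66 from its 2 partners. It was lowest of all 6 libraries for Sdha, Sdhb, Sdhc and Sdhd, and for all 7 core subunits of complex I (median -0.49). The accessory subunits of complex I differed less in this library (median -0.23), and for 18 of 28 of them wild type replicate 3 was the lowest. In wild type replicate 3 the order was turned, with a median of -0.44 for the accessory and -0.33 for the core subunits. In complex IV the 3 muscle forms had a median of -0.95 in Aim2 KO replicate 1 and of -0.94 in wild type replicate 3. Their common forms differed by 0.37 (Cox6a1), 0.36 (Cox8a) and -0.32 (Cox7a2) in Aim2 KO replicate 1, and by -0.15, -0.32 and -0.47 in wild type replicate 3.

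Further members, picked after their values were seen, show this in single genes. Ndufs1, the largest core subunit of complex I, was at 57.4, 110.2 and 94.0 FPKM in the Aim2 KO libraries. In wild type it was at 93.3, 107 and 89.99 FPKM, so that Aim2 KO replicate 1 stood below all others. Ndufa3, a small accessory subunit, showed the other pattern: 47.2, 64.9 and 61.0 FPKM in Aim2 KO against 76.8, 93.0 and 40.7 in wild type. Atp5k, a small membrane subunit of ATP synthase, was at 61.6, 77.2 and 67.9 FPKM against 82.9, 97.8 and 45.4. For both small subunits wild type replicate 3 was the lowest of the 6.

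These genes differ in length as well as in role, since core and catalytic subunits are long and many accessory and membrane subunits are short. Among members with a coding length under 450 bases (46 genes), the median difference from the 2 partners was -0.24 in Aim2 KO replicate 1 and -0.46 in wild type replicate 3. From 450 up to 900 bases (28 genes) the medians were -0.38 and -0.37, and with 900 or more (16 genes) -0.43 and -0.19. Aim2 KO replicate 1 was thus lowest in the long members and wild type replicate 3 in the short ones. All tested genes with a coding length leaned the same ways: in the same 3 classes (841, 2436 and 8395 genes) the medians were 0.03, -0.05 and -0.12 in Aim2 KO replicate 1 and -0.20, -0.07 and 0.06 in wild type replicate 3. Across the 90 members, Spearman's rho between coding length and this difference was -0.37 and 0.60 in these 2 libraries. Over 11672 genes it was -0.13 and 0.42. Other libraries had a length trend as well. In wild type replicate 1, where the members were not low, rho was -0.66 over the members and -0.37 over all these genes. In Aim2 KO replicate 3 it was 0.36 and 0.20. Each difference is taken against the partners, so the values within a genotype are not independent. They describe genes that share their libraries. In a step chosen after seeing the data, each library's trend with the gene length of the deposited table was removed. That length is another measure than coding length (Ndufb7 has 4435 bases against 411 coding), and no fit removed the trend with coding length. The mean level of the members was then 6.56, 6.84 and 6.81 against 6.86, 6.96 and 6.69. Both low libraries remained the lowest, by less. The part of RNA quality or library preparation in these differences was not tested.

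**Figure D4:**
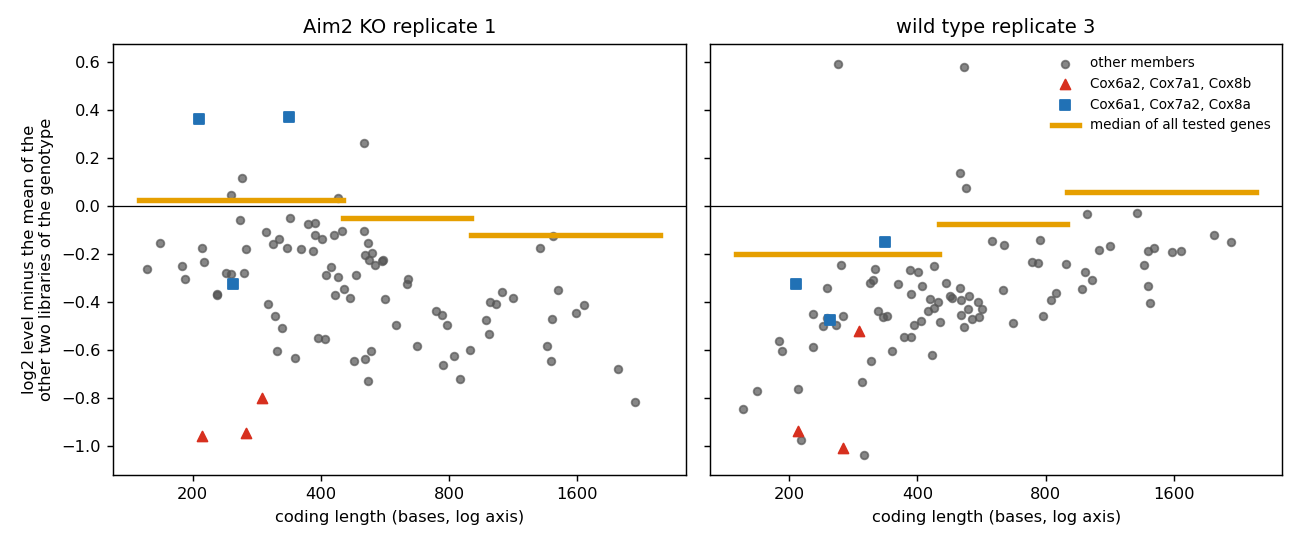
Log2 level of each tested gene minus the mean of the other 2 libraries of its genotype (vertical axis) against its coding length in bases (horizontal log axis), for Aim2 KO replicate 1 (left) and wild type replicate 3 (right). Grey points are members, red triangles and blue squares the muscle and common forms, and gold bars the medians of all tested genes in 3 length classes; members lie below the gold bars at most lengths, lower at the right in Aim2 KO replicate 1 and lower at the left in wild type replicate 3.

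Skeletal muscle markers were low in Aim2 KO replicate 1, with a median of -0.98 against its 2 partners, and less so in wild type replicate 3, with a median of -0.20 and 10 of 14 markers below. Wild type replicate 1 also had 10 of 14 markers below (median -0.09), although the members were not low in it (median 0.13). The mean log2 level of 14 muscle markers was 8.72, 9.81 and 9.71 in Aim2 KO and 9.56, 9.81 and 9.58 in wild type. With this level as a covariate, the median difference between genotypes over the members was -0.02, and 59 of 90 were below 0. Over all tested genes the median was 0.04 and 36.3% were below 0. No member was called in that fit. Because this level mostly sets Aim2 KO replicate 1 apart, the fit cannot separate muscle from other traits of that library. Markers of other cell types also stood apart in Aim2 KO replicate 1, by medians of -1.60 for fibroblasts, -1.11 for endothelium, -1.13 for Schwann cells, -1.86 for red cells and 1.19 for salivary gland, and no fit was made with these as covariates.

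Genes that work beside the respiratory chain were compared in the same way. Of the 13 subunits encoded by the mitochondrial genome, 12 were tested, at 6.68 to 16202 FPKM, and 11 were below 0 (median -0.16) with 0 called and 0 at an unadjusted p under 0.05. The smallest p was that of mt-Nd3, a membrane subunit of complex I, at 27.9, 36.0 and 39.0 FPKM in Aim2 KO and 38.9, 41.6 and 48.1 in wild type (log2 difference -0.32, limma unadjusted p = 0.065). Over the 6 libraries mt-Nd3, mt-Nd4l, mt-Atp6, mt-Co2 and mt-Co3 lay between 4.93 and 71.4 FPKM, and the other tested genes of the list between 1547 and 18031. How the authors assigned reads to these genes is not given, so the levels of the low ones, mt-Nd3 included, are uncertain. The mean log2 level of the 12 genes was 8.86, 9.34 and 9.41 against 9.29, 9.41 and 9.42. Aim2 KO replicate 1 was low for these genes as it was for the nuclear members, and it was the lowest library for 11 of 12 (4161 of 12144 tested genes). Wild type replicate 3 was not: 4 of 12 lay below the mean of the other wild type libraries, against 86 of 90 nuclear members (5672 of 12144 tested genes). Without Aim2 KO replicate 1, 7 of the 12 had a genotype difference below 0 (median -0.01), where 33.3% of all tested genes did (median 0.06).

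Enzymes of the TCA cycle, which feeds NADH and succinate to the chain, were tested for 13 of 13 genes, of which 12 were below 0 (median -0.14). Those of fatty acid oxidation were tested for 12 of 13, all below 0 (median -0.16). For both lists Aim2 KO replicate 1 had the lowest mean log2 level, 6.43 for the TCA cycle (the other libraries 6.84 to 7.09) and 5.75 for fatty acid oxidation (6.05 to 6.51), and wild type replicate 3 was the next lowest. The lower direction rested on Aim2 KO replicate 1: without it, 1 of 13 TCA cycle genes (median 0.09) and 1 of 12 of fatty acid oxidation (median 0.05) were below 0. Of all tested genes 33.3% were below 0 without that library (median 0.06), which also applies to the lists that follow. Assembly factors outside the name rule were tested for 34 of 40, of which 23 were below 0 (median -0.05), and 12 without Aim2 KO replicate 1 (median 0.06). For the 15 regulators of mitochondrial genes 7 were below 0, and 3 without that library. Among them Ppargc1a, the coactivator of mitochondrial biogenesis, was at 2.05, 4.57 and 6.09 FPKM against 4.12, 8.10 and 5.58 (log2 difference -0.45, limma unadjusted p = 0.211), and Gabpa, the ETS factor named above, had 10.1 ± 0.82 against 8.99 ± 0.64 FPKM. No gene of these 4 lists was called or had an unadjusted p under 0.05.

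**Figure D5:**
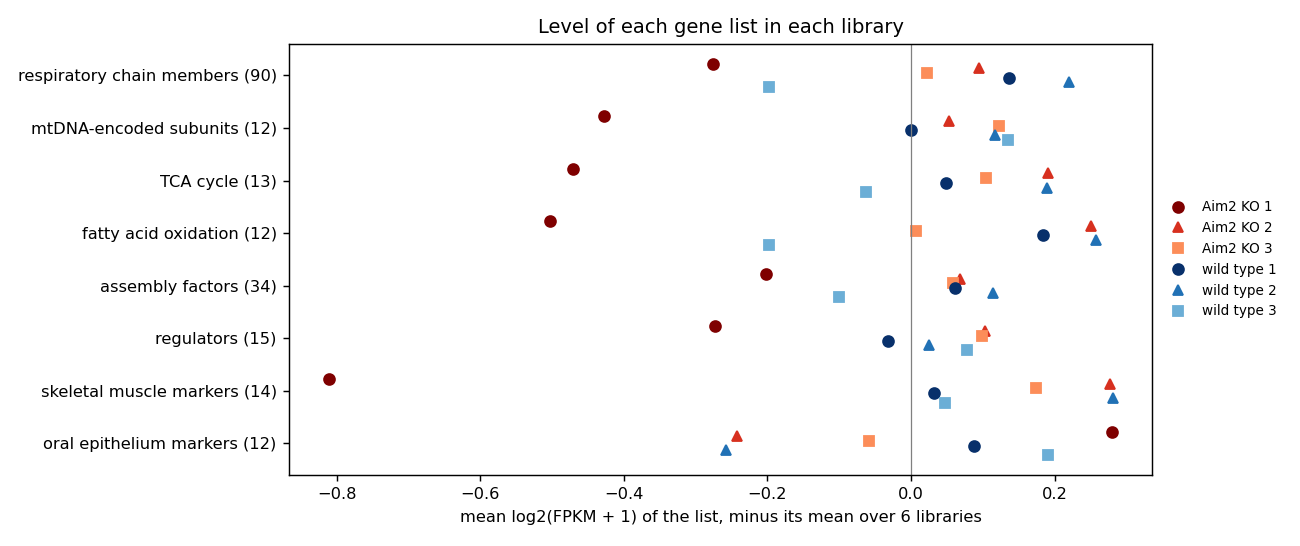
Mean log2(FPKM + 1) of each gene list in each library, minus the mean over the 6 libraries (horizontal axis), with the number of tested genes in brackets (vertical axis) and 1 point per library. Aim2 KO replicate 1 is the lowest library for the 7 other lists plotted and the highest for oral epithelium; wild type replicate 3 is low for the respiratory chain members and fatty acid oxidation but not for the subunits of the mitochondrial genome.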

How the data were processed

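Tongue RNA was extracted with a column kit and libraries were built by a sequencing company, per the labels' protocols. The authors deposited a table of FPKM per gene and library. For the aligner, counter, strandedness, genome build and annotation the sources used here give nothing; the coordinates of 57 of the 94 members are identical in GENCODE M21 (GRCm38). FPKM times gene length gave whole reads within 0.01 for 100% of the values above 0, and library totals are sums of these reads; reads of the tested members ran from 14 to 68293 per library, with at least 50 in every library for 89 of 90.

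FPKM was taken as log2(FPKM + 1), which understates changes of low genes, and the test took the 12144 genes whose mean over the 6 libraries reached 1 FPKM. Genotypes were compared over all 6 libraries with limma 3.58.1 in R 4.3.3 (intensity trend, two-sided) and Benjamini-Hochberg adjustment over all tested genes, threshold 0.05. Isoform ratios were compared with exact permutation tests (SciPy 1.17.1). The scripts were tested on simulated data. Nothing in the labels ties a library to an animal of its own; p-values then reflect only how far these samples spread, which may be technical. Within each genotype the library names share a stem after the genotype letters, which the other genotype lacks, and differ in a suffix. The labels do not say what these stand for, and whatever the stem marks cannot be told apart from genotype. Genotype was taken from the sample titles.

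The members and all gene lists were chosen with earlier results of these data known. Named members were those past the threshold, the 5 smallest p in each direction, the most abundant of each complex, Cycs and the isoform pairs; of other lists at most 2 genes with the smallest p were named. Coding length is the longest coding sequence in GENCODE M21 (90 of 90 tested members, 11672 tested genes). Alternatives covered the pseudocount, filter, scaling, test, covariates and leaving out each library.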

Additional observations from a re-analysis of the deposited data

How the results depend on the processing

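In no alternative was a member called: 0 of the tested members passed the limma threshold under every pseudocount, filter, scaling, test, covariate and left-out library, and the lowest adjusted p of a member was 0.270, with array quality weights. The median log2 difference over the members stayed negative (-0.14 with median-of-ratios scaling, -0.085 with quantile normalization, -0.066 with array quality weights, -0.020 with the muscle covariate), except that leaving out 1 library moved it between -0.24 and 0.0019. Leaving out 1 library moved the log2 ratio difference of Cox6a2 to Cox6a1 between -0.48 and 0.13, of Cox7a1 to Cox7a2 between -0.22 and 0.16, and of Cox8b to Cox8a between -0.59 and 0.077. Of single genes, the sign turned with array quality weights for Atp5b (0.054), Cox7b (0.0016), Cox8a (-0.17), Cycs (0.039) and Ndufaf2 (-0.10). With the muscle covariate it turned for Atp5b (0.063), Cox7a1 (0.062), Cox7b (0.018), Cox8a (-0.054) and Cycs (0.018). With median-of-ratios scaling it turned for Cox4i2 (-0.014) and Cox8a (-0.017), and for Cox4i2 also with a pseudocount of 0.1 (-0.011), quantile normalization (-0.012) and voom on recovered reads (-0.00045). Leaving out 1 library gave ranges that cross 0 for Atp5b (-0.14 to 0.10), Cox4i2 (-0.24 to 0.25), Cox6a1 (-0.15 to 0.048), Cox7a1 (-0.52 to 0.13), Cox7a2l (-0.024 to 0.13), Cox7b (-0.22 to 0.040), Cox8a (-0.11 to 0.12), Cycs (-0.23 to 0.083), Ndufa4l2 (-0.30 to 0.081), Ndufaf2 (-0.015 to 0.19), Ndufb5 (-0.077 to 0.19), Ndufb9 (-0.24 to 0.028), Sdha (-0.36 to 0.014) and Uqcrc1 (-0.16 to 0.025). The cause was not tested. With the replicate number as a block, 0 members and 0 of all tested genes were called, the median over the members was -0.11, and the differences in isoform ratio were -0.26, -0.046 and -0.36. Same-numbered libraries of the genotypes had correlations of 0.35, 0.46 and 0.030 in their deviations from the group means. The other combinations ran from -0.46 to 0.21. The value of 0.030 lay under the minimum of 0.1 set for pairing, so the numbers were not taken to pair the samples. Over all tested genes 1 gene was called, against 65 higher and 3 lower with array quality weights, 23 and 2 with the muscle covariate, and 12 and 2 without Aim2 KO replicate 1. With 3 libraries a genotype, a change inside the printed intervals could not be told from none.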
